A study of Mus musculus with 8 samples.

Results

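The comparison described here set FGF10 against FGF2 as the factor given to mouse embryonic stem (ES) cells after a first phase with IDE2, and it used 4 of the 8 arrays of the study. The arrays were chosen by their titles, IDE2+FGF10 (replicates 1 and 2) and IDE2+FGF2 (replicates 1 and 2), and not by any measured value. All cells came from E14TG2a, a feeder-independent mouse ES cell line. IDE2 is a small molecule reported to push ES cells towards definitive endoderm, from which gut and lung derive.

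The IDE2+FGF10 cultures had 6 days of IDE2 at 1 uM followed by 5 days of FGF10 at 25 ng/ml. The IDE2+FGF2 cultures had the same 6 days of IDE2 followed by 5 days of FGF2 at 500 ng/ml. The groups thus differed in the factor and in its dose, so that identity and dose cannot be told apart. Both spent 11 days in a serum-poor differentiation medium. No group spent all 11 days there without IDE2, and none had 6 days of IDE2 followed by 5 days with no factor. The remaining arrays are IDE2 given for all 11 days (2 arrays) and undifferentiated ES cells (2 arrays). They set levels in context, and in the fit they enter only the estimate of the spread. Before the fit they also shared in the quantile normalization, the detection filter and the choice of each gene's probe. Nothing in the labels tells whether replicates came from separate cultures, and every p-value therefore speaks of the spread between arrays alone, which may be technical.

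Fibroblast growth factors bind receptor tyrosine kinases together with heparan sulfate and switch on the RAS-ERK cascade. ERK activity in turn raises the ETS transcription factors Etv4 and Etv5 and a set of feedback inhibitors (the Dusp phosphatases, Sprouty and Spred proteins), which are commonly read as a gauge of pathway output. FGF2 binds mainly the c splice forms of several receptors, whereas FGF10 acts mainly on the b splice form of FGFR2 that epithelia carry. In the embryo FGF10 comes from mesenchyme and drives budding of the lung, and in ES cells FGF signalling opposes the ground state.

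Of 9915 genes tested, 258 were higher and 467 lower in IDE2+FGF10 than in IDE2+FGF2 cells at an adjusted p under 0.05 (limma, Benjamini-Hochberg over all genes), 725 or 7.31% in all. The share was 2.6% for genes that were higher and 4.71% for genes that were lower. Counts of changed list members given below are to be read beside these shares. The largest rises included Tfap2b, Cbln1, Wnt3a, Wnt1, Msx1 and the retinoic acid binding proteins Crabp1 and Crabp2. The largest falls included Emcn, Lmo2, Etv4, Dusp4 and L1td1, whose roles are given with their values. All 725 changed genes had arrays that did not overlap between the groups, which held for 59.7% of all genes tested. With levels below background taken at face value, 258 higher and 461 lower genes differed at least 2-fold (719 genes, 7.25% of those tested). A lower-bound fold, written "at least", is used for the 146 changed genes whose probe was not detected on either array of the lower group. Such a bound can lie under 2-fold, as for Meox1 (1.38) and Cd93 (1.48), so a 2-fold difference is not shown for all 719. For another 60 the probe was detected on only 1 of the 2 arrays of the lower group, so that the fold rests partly on a value below background. Named genes of this kind are Ppp1r1b, Otx1, Fgf8 and Notum among the rises and Klhl6, Arhgap18, Hhex, Mmrn2 and Zscan4c among the falls.

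The arrays were not equally alike. The IDE2+FGF10 replicates differed at least 2-fold in 180 genes, the IDE2+FGF2 replicates in 1023. Median signals were 130 and 133 in IDE2+FGF10 and 137 and 175 in IDE2+FGF2, and 11609 and 11861 against 12809 and 13080 of 25697 probes were detected. IDE2+FGF2 replicate 2 stood farther from the IDE2+FGF10 arrays (2186 and 2208 genes at least 2-fold apart) than replicate 1 did (1407 and 1436). Without IDE2+FGF2 replicate 2 the number of changed genes was 155, and without replicate 1 it was 1048. Without IDE2+FGF10 replicate 1 or 2 it was 84 or 68, where the lone array was assumed to vary like the other groups. It was 1484 without an IDE2 array and 364 without an ES array, which enter only the estimate of the spread. Of the 126 changed genes named here, 43 and 39 passed without IDE2+FGF10 replicate 1 or 2, and 99 and 52 without IDE2+FGF2 replicate 1 or 2. When arrays were aligned by their medians instead of their whole distributions, 136 genes were higher and 1237 lower (90.1% lower, against 64.4%), and the median log2 difference over all genes was -0.27, against 0. These 126 genes kept their direction under every alternative that gave them a value. Leaving out, weighting or blocking arrays could not reverse it, because no changed gene overlapped between the groups. Of the 126, 34 passed in every alternative, so a gene without a note on lost calls is not thereby stable.

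**Figure D1:**
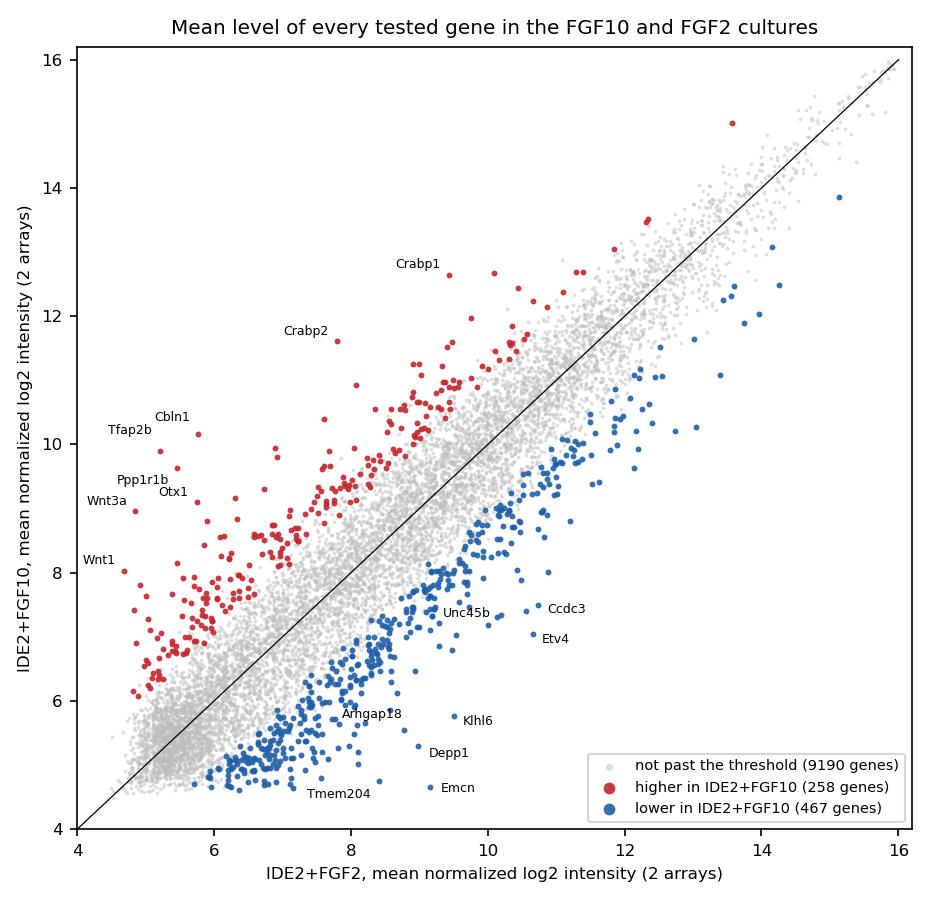
Mean normalized log2 intensity of each of 9915 genes in IDE2+FGF10 (vertical axis) against IDE2+FGF2 (horizontal axis), 2 arrays each. Red points are the 258 genes that were higher and blue points the 467 that were lower at an adjusted p under 0.05 (limma). The line marks equal levels, and labels mark 8 large rises and 8 large falls.

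Tfap2b, a transcription factor of neural crest and kidney, had normalized log2 intensities of 9.93 and 9.86 in IDE2+FGF10 cells, against 5.31 and 5.11 in IDE2+FGF2 cells. Its probe was detected on both IDE2+FGF10 arrays and on neither IDE2+FGF2 array, and the level was at least 21.8-fold higher (log2 difference 4.69 ± 0.27 SE, limma adjusted p = 2.3e-05). Cbln1, a synapse-organizing secreted protein, stood at 10.19 and 10.15 in IDE2+FGF10 and at 6.02 and 5.51 in IDE2+FGF2 (21.2-fold higher, limma adjusted p = 6.2e-05). For both genes the pairs of arrays lay far apart and close within each group. IDE2 arrays were at 10.16 and 10.12 for Tfap2b and at 10.55 and 10.59 for Cbln1, on the side of IDE2+FGF10.

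The Wnt ligands Wnt3a and Wnt1 were also higher. Wnt3a had levels of 9.01 and 8.91 in IDE2+FGF10, against 4.87 and 4.83 in IDE2+FGF2, where it was not detected (at least 11.4-fold higher, limma adjusted p = 8.3e-05). Wnt1 had levels of 8.16 and 7.90 in IDE2+FGF10, against 4.75 and 4.61 in IDE2+FGF2, also not detected there (at least 5.99-fold higher, limma adjusted p = 0.0003). Wnt3a and Wnt1 were thus above background in IDE2+FGF10 and below it in IDE2+FGF2, with no overlap. In a list of 21 tested Wnt pathway genes, 4 were higher (Wnt3a, Wnt6, Notum and Sp5) and 1, Lef1, was lower, a call that was lost in 16 of 20 alternatives. The median difference was 0.25, against 0 over all genes. Notum, a secreted Wnt deacylase, was 2.81-fold higher and Sp5, a transcription factor induced by Wnt, 3.02-fold higher. Wnt6 was 4.18-fold higher, but its IDE2+FGF2 arrays lay at 9.95 and 8.11, and without the second of them it no longer passed (log2 difference 1.14, limma adjusted p = 0.17). The Wnt list had 1 changed gene without either IDE2+FGF10 array or without IDE2+FGF2 replicate 2, and 3 without an ES array.

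Among 17 tested genes of neural progenitors and neurons, Otx1, Msx1, Msx2 and Zic1 were higher and Crmp1, an axon guidance mediator, was lower, and the other 12 did not pass (list median 0.16). Otx1, a homeobox factor of forebrain and midbrain, was at 9.13 and 9.07 in IDE2+FGF10 and at 6.10 and 5.41 in IDE2+FGF2 (10.2-fold higher, limma adjusted p = 0.00041). Msx1, a homeobox factor of dorsal neural tube and crest, was at 9.16 and 9.19 in IDE2+FGF10 and at 6.10 and 6.50 in IDE2+FGF2 (7.32-fold higher, limma adjusted p = 0.0014). Neither gene overlapped between groups. Its relative Msx2 was 4.68-fold and Zic1, a zinc finger factor of dorsal neural tissue, 2.93-fold higher. The related homeobox gene Otx2 moved the other way: it was at 9.98 and 9.88 in IDE2+FGF10 and at 12.02 and 12.37 in IDE2+FGF2 (4.80-fold lower, limma adjusted p = 0.0024).

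The general markers of neural cells were mostly below background. Pax6, Sox1 and Tubb3 were not detected on any of the 4 arrays, and the summed linear signal of the 6 neural markers was 1828 and 1626 in IDE2+FGF10, against 2340 and 2834 in IDE2+FGF2. Stmn2 made up most of each sum. It was at 10.67 and 10.54 in IDE2+FGF10, 11.05 and 11.38 in IDE2+FGF2, and 11.35 and 10.96 in ES cells. Of the neural crest markers Foxd3 was not detected on any array, and the summed signal of the 3 with a probe was 805 and 760 in IDE2+FGF10, against 323 and 323 in IDE2+FGF2. Of 7 tested genes of glia and neural crest, Tfap2b and Ednrb, the endothelin receptor of crest cells, were higher (Ednrb 3.62-fold) and none was lower. Leaving out either IDE2+FGF10 array or IDE2+FGF2 replicate 2 left 2 changed genes in the neural list and 1 in the crest list. In bulk samples fewer cells of a type and less RNA per cell cannot be told apart.

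Retinoid binding was the next group. Crabp2, which carries retinoic acid to its nuclear receptors, had levels of 11.68 and 11.55 in IDE2+FGF10, against 7.70 and 7.90 in IDE2+FGF2 (14.1-fold higher, limma adjusted p = 0.00095). Crabp1, its cytosolic relative, had levels of 12.61 and 12.70 in IDE2+FGF10, against 10.41 and 8.45 in IDE2+FGF2 (9.33-fold higher, limma adjusted p = 0.011). The IDE2+FGF2 arrays differed widely for Crabp1: without replicate 1 of that group the log2 difference was 4.20 and without replicate 2 it was 2.24, no longer past the threshold (limma adjusted p = 0.087). Rarb, a retinoic acid receptor that retinoic acid itself induces, was 2.79-fold lower, at 6.99 and 6.96 in IDE2+FGF10 against 8.35 and 8.56 in IDE2+FGF2. These were the 3 changed genes of 14 tested in the Notch, retinoid and hedgehog list, and 1 gene was called without either IDE2+FGF10 array or without IDE2+FGF2 replicate 2.

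The remaining large rises were Ppp1r1b, the dopamine-regulated phosphatase inhibitor DARPP-32 (18.1-fold), Cntnap2, a neurexin-family adhesion protein (8.26-fold), Egr2, a zinc finger factor of hindbrain and Schwann cells (7.54-fold), Dmrta2, a factor of the dorsal telencephalon (7.36-fold), Hspa1a (7.16-fold), Irx2, an Iroquois homeobox factor (6.87-fold), and Lix1 (at least 5.15-fold). For 14 of the 15 largest rises both IDE2 arrays lay above both IDE2+FGF2 arrays, and the IDE2 mean was nearer to IDE2+FGF10. Over all 258 genes that were higher, the IDE2 mean was nearer to IDE2+FGF10 for 56.6%, and over all genes tested for 43.9%. Both IDE2 arrays lay above both IDE2+FGF2 arrays for 185 of the 258 and for 2376 of all 9915 genes tested. Picking the 258 for low IDE2+FGF2 levels by itself favours this order, so these counts are not like for like. The exception among the 15 was Hspa1a, at 5.20 and 6.27 in IDE2. Most of the 15, picked for being lower in IDE2+FGF2 than in IDE2+FGF10, were thus also higher in IDE2 than in IDE2+FGF2.

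**Figure D2:**
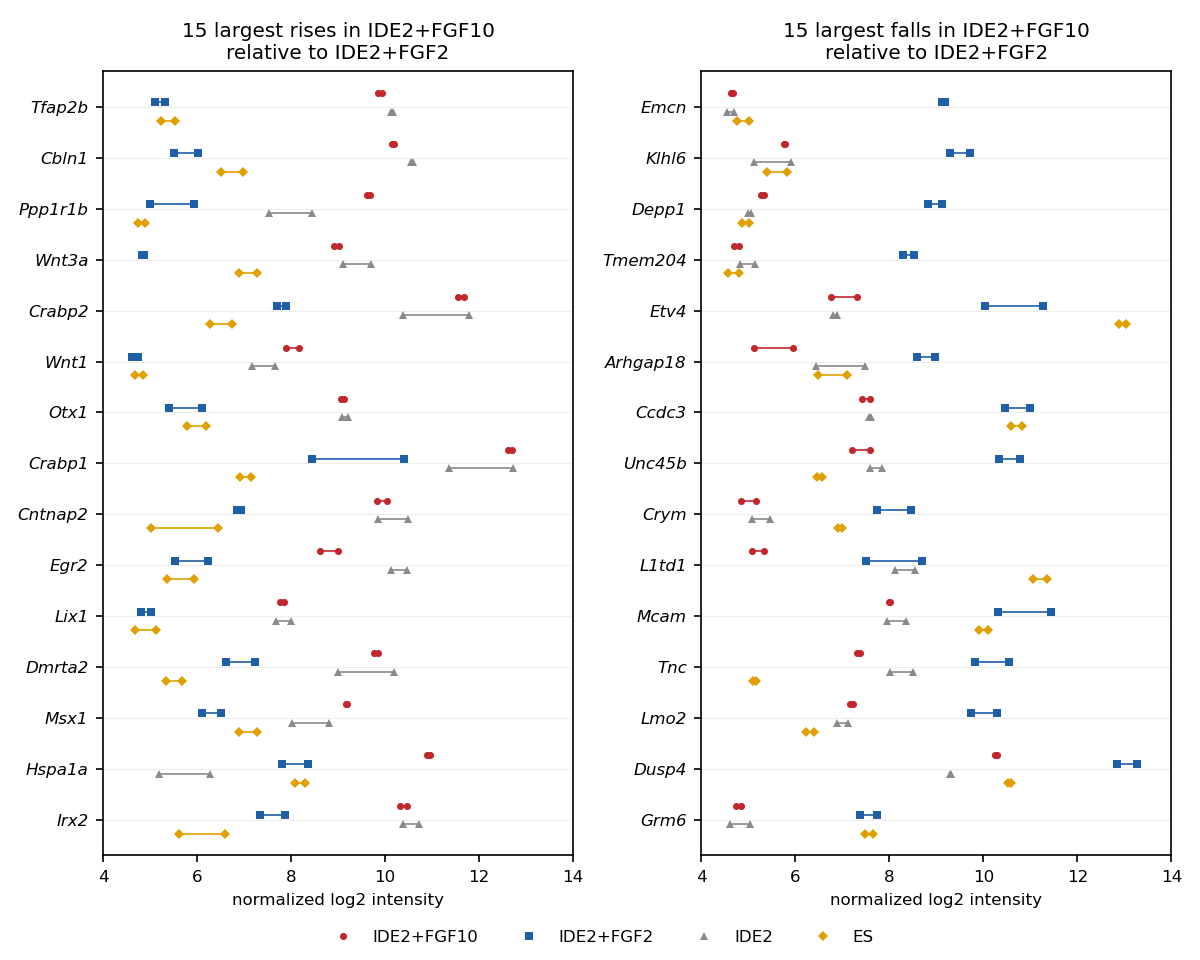
Normalized log2 intensity on each array for the 15 largest rises (left) and the 15 largest falls (right) in IDE2+FGF10 relative to IDE2+FGF2, with IDE2 and ES arrays below them. Each symbol is an array and the line joins the 2 arrays of a group. The 30 genes were picked from changed genes whose IDE2+FGF10 and IDE2+FGF2 pairs do not overlap.

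Genes commonly read as a gauge of FGF signalling were lower with FGF10 at 25 ng/ml than with FGF2 at 500 ng/ml. Of 12 tested feedback inhibitors and ETS targets, 5 were lower, 0 were higher and 7 did not pass, with a median difference of -1.47 (-1.06 with undetected genes at their bound) against 0 over all genes. Etv4, an ETS factor induced by ERK, had levels of 7.31 and 6.76 in IDE2+FGF10, against 10.04 and 11.27 in IDE2+FGF2 (12.3-fold lower, limma adjusted p = 0.00091). Dusp4, a nuclear phosphatase of ERK, had levels of 10.25 and 10.29 in IDE2+FGF10, against 12.84 and 13.26 in IDE2+FGF2 (6.88-fold lower, limma adjusted p = 0.00061). The arrays of the groups did not overlap for either gene. All 3 kept probes of Dusp4 were called lower, against 2 of 3 for Dusp6.

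Dusp6, the cytoplasmic phosphatase of ERK, was at 11.98 and 12.09 in IDE2+FGF10 and at 13.95 and 13.98 in IDE2+FGF2 (3.80-fold lower, limma adjusted p = 0.012). Spred1, a membrane inhibitor of RAS-RAF signalling, was at 8.34 and 8.13 in IDE2+FGF10 and at 10.14 and 9.93 in IDE2+FGF2 (3.49-fold lower, limma adjusted p = 0.0054). Etv5 was at 7.35 and 7.50 in IDE2+FGF10 and at 8.61 and 9.84 in IDE2+FGF2 (3.47-fold lower, limma adjusted p = 0.033). All of these pairs were separate, but for Etv5 and Etv4 the higher of the IDE2+FGF2 arrays was replicate 2. The log2 difference of Etv4 was -3.01 without that array and -4.23 without replicate 1, and that of Etv5 was -1.18 (limma adjusted p = 0.19) and -2.41. Spry4, a Sprouty inhibitor, was not detected in IDE2+FGF10 and stood at 5.63 and 7.82 in IDE2+FGF2 (limma adjusted p = 0.055, not passed). The list had 8 changed genes without IDE2+FGF2 replicate 1, 3 without replicate 2, and 2 without either IDE2+FGF10 array. The IDE2 arrays were at 6.81 and 6.89 for Etv4 and at 9.30 and 9.32 for Dusp4, close to or below IDE2+FGF10. For Dusp6 the IDE2 arrays were at 12.32 and 13.42 and for Spred1 at 9.53 and 9.89, above IDE2+FGF10, and for Etv5 they were at 7.05 and 8.05, on either side of it. ES cells had the highest Etv4, 12.88 and 13.03, Etv5, 10.22 and 10.03, and Spry4, 8.86 and 9.03. In ES cells Spred1 was at 9.92 and 9.94, near IDE2+FGF2, and Dusp4 at 10.58 and 10.53, nearer to IDE2+FGF10. Dusp6, at 12.70 and 12.68 there, lay between IDE2+FGF10 and IDE2+FGF2. The summed signal of the ES cell markers, given with the pluripotency genes, was also lower in IDE2+FGF10. The part of undifferentiated cells in these differences was not tested.

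The ligands and receptors changed in both directions. Of 9 tested FGF ligand genes, Fgf8 and Fgf15 were higher and Fgf5 was lower. Fgf8, a ligand of the midbrain-hindbrain boundary and the primitive streak, was at 8.19 and 8.11 in IDE2+FGF10 and at 4.93 and 5.98 in IDE2+FGF2 (6.48-fold higher, limma adjusted p = 0.005). Fgf15, the gut and brain ligand of FGFR4, was at 8.58 and 8.57 in IDE2+FGF10 and at 6.30 and 5.99 in IDE2+FGF2 (5.38-fold higher, limma adjusted p = 0.0011). Fgf5, a marker of the epiblast after implantation, was at 6.51 and 6.07 in IDE2+FGF10 and at 8.87 and 8.30 in IDE2+FGF2 (4.92-fold lower, limma adjusted p = 0.0054). None of these pairs overlapped. The transcript of Fgf10 itself, which the added protein does not supply, was at 6.44 and 6.86 in IDE2+FGF10 and at 6.88 and 6.93 in IDE2+FGF2 and did not pass (limma adjusted p = 0.64), and the Fgf2 probe was detected on 0 of 8 arrays.

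Of 19 tested receptors and cofactors, 2 were higher and 2 lower, with a median of 0.43. Fgfr3 was at 6.85 and 6.33 in IDE2+FGF10 and not detected in IDE2+FGF2 (at least 2.20-fold higher), and Gpc1, a heparan sulfate proteoglycan that presents FGFs, was 2.23-fold higher. Sdc3, a syndecan that also carries heparan sulfate, was at 7.15 and 6.58 in IDE2+FGF10 and at 9.20 and 9.36 in IDE2+FGF2 (5.36-fold lower, limma adjusted p = 0.0024). Flrt2, a membrane protein that binds FGF receptors, was at least 3.53-fold lower. Fgfr2, the main receptor of FGF10 in its b form, was at 7.61 and 7.96 in IDE2+FGF10 and at 6.78 and 6.98 in IDE2+FGF2 without passing (log2 difference 0.91 ± 0.30 SE, limma adjusted p = 0.094), and the array does not separate its splice forms. Fgfr1, the main FGF2 receptor of ES cells, was at 7.07 and 6.54 in IDE2+FGF10 and at 5.48 and 8.02 in IDE2+FGF2, with overlapping groups. Of the receptor list 1 or 2 genes changed without IDE2+FGF10 replicate 1 or 2, 2 without IDE2+FGF2 replicate 2 and 7 without an IDE2 array.

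Among 14 tested immediate-early genes, which growth factors induce within minutes, Egr2 and Jun were higher and Klf6 was lower, with a median of 0.20. Jun, a subunit of AP-1, was at 9.39 and 9.27 in IDE2+FGF10 and at 7.84 and 7.20 in IDE2+FGF2 (3.49-fold higher, limma adjusted p = 0.028). Klf6 was 2.25-fold lower. The list had 1 changed gene without an IDE2+FGF10 array, an ES array or IDE2+FGF2 replicate 2, 5 without IDE2+FGF2 replicate 1 and 6 without an IDE2 array.

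**Figure D3:**
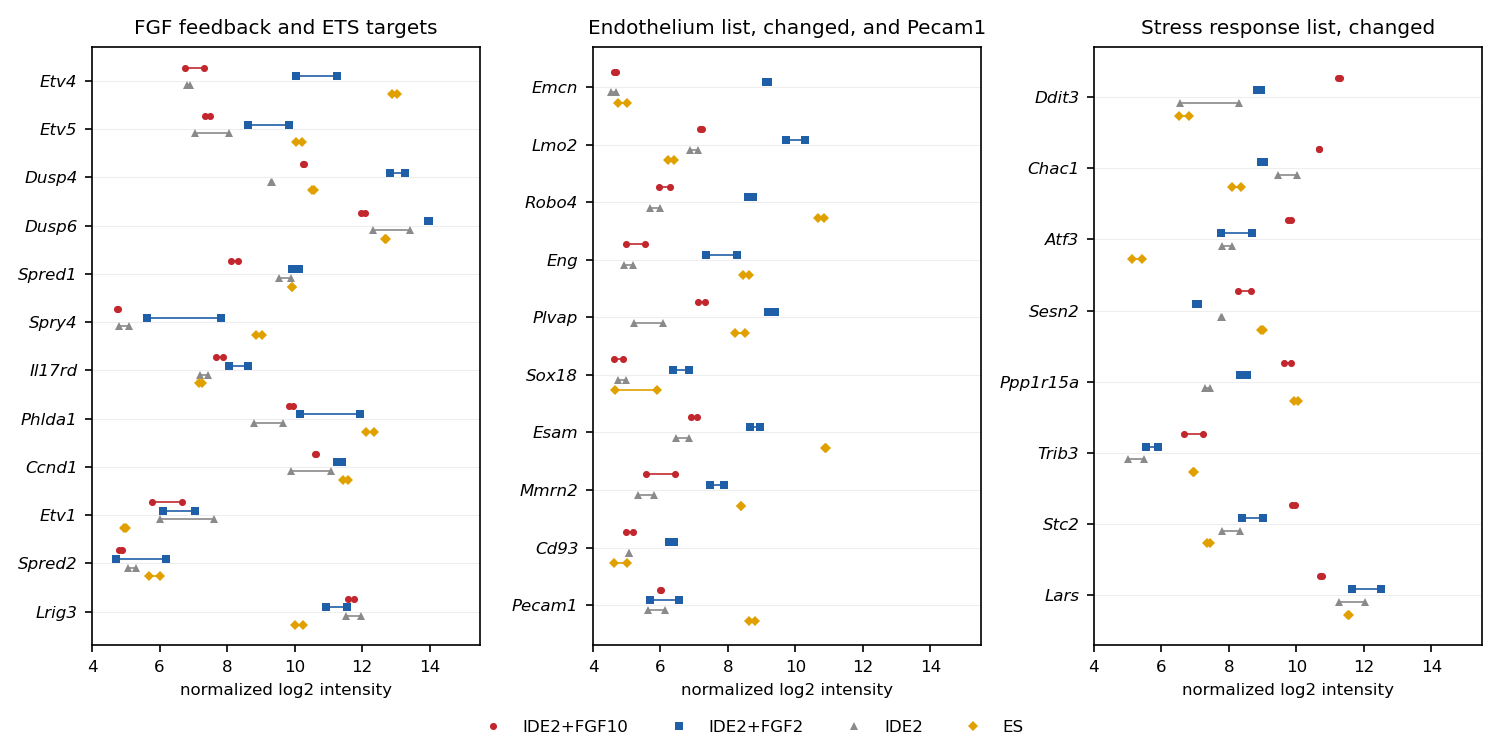
Normalized log2 intensity on each array for the 12 tested FGF feedback inhibitors and ETS targets (left), the 9 changed endothelium list genes with Pecam1 (middle) and the 8 changed genes of the integrated stress response list (right). Each symbol is an array, and the line joins the 2 arrays of a group. In the middle panel only Pecam1 has overlapping IDE2+FGF10 and IDE2+FGF2 arrays.

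Among the largest falls, Klhl6, a BTB-Kelch protein, stood at 5.78 and 5.75 in IDE2+FGF10 and at 9.71 and 9.30 in IDE2+FGF2 (13.4-fold lower, limma adjusted p = 0.00036). Depp1, a target of FOXO factors, was at least 9.32-fold lower, and Arhgap18 and Ccdc3, a secreted protein, were 9.45-fold lower each. Unc45b, a chaperone of muscle myosin, was 8.94-fold, Crym, a thyroid hormone binding protein, at least 5.06-fold and Grm6, a glutamate receptor, at least 3.48-fold lower. For 14 of the 15 largest falls both IDE2 arrays lay below both IDE2+FGF2 arrays, and for 14 the IDE2 mean was nearer to IDE2+FGF10. L1td1 was the exception, at 8.11 and 8.54 in IDE2. Over all 467 genes that were lower, the IDE2 mean was nearer to IDE2+FGF10 for 45.8%, against 43.9% of all genes tested. Both IDE2 arrays lay below both IDE2+FGF2 arrays for 279 of the 467 and for 2353 of all 9915 genes tested. The 467 were picked for high IDE2+FGF2 levels, which by itself favours this order, so these counts are not like for like. Emcn, Depp1 and Tmem204 were detected on the IDE2+FGF2 arrays alone, so they were tested only through that group.

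Genes of endothelium were lower with FGF10. Of 23 tested, 9 were lower (Emcn, Robo4, Eng, Lmo2, Plvap, Sox18, Esam, Mmrn2 and Cd93) and 0 were higher, with a median of -0.61. Emcn and Cd93 were detected on the IDE2+FGF2 arrays alone, so they were tested only through that group, which fixed their direction. Emcn, a sialomucin of venous and capillary endothelium, had levels of 4.68 and 4.62 in IDE2+FGF10, against 9.13 and 9.19 in IDE2+FGF2 (at least 10.6-fold lower, log2 difference -4.51 ± 0.27 SE, limma adjusted p = 2.3e-05). Among the 4 groups only IDE2+FGF2 had this probe above background. Lmo2, a cofactor of blood and vessel formation, had levels of 7.22 and 7.17 in IDE2+FGF10, against 10.28 and 9.73 in IDE2+FGF2 (7.03-fold lower, limma adjusted p = 0.0008). Robo4, a receptor of endothelial cells, had levels of 5.96 and 6.27 in IDE2+FGF10, against 8.75 and 8.58 in IDE2+FGF2 (5.86-fold lower, limma adjusted p = 0.00095). The groups were well apart for these genes.

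Tmem204 (at least 6.29-fold lower) and Mcam, the adhesion molecule CD146 (7.33-fold lower), were also among the 15 largest falls. Neither is in the list, and Mcam was at 10.09 and 9.91 in ES cells. Defining endothelial markers were undetected or did not pass. Cdh5 and Tie1 were detected on 0 of 8 arrays, Kdr on none of the 4 arrays compared, and Pecam1 was at 6.00 and 6.01 in IDE2+FGF10 and at 5.70 and 6.54 in IDE2+FGF2 (limma adjusted p = 0.87). The summed linear signal of the 6 endothelial markers was 232 and 210 in IDE2+FGF10, against 752 and 838 in IDE2+FGF2. Emcn made up most of the IDE2+FGF2 sums, and without it the sums were 206 and 185 in IDE2+FGF10, against 192 and 254 in IDE2+FGF2. Robo4, Eng, Esam, Plvap and Mmrn2 were also detected on both ES arrays; Robo4 for instance was at 10.68 and 10.86 there. The endothelium list had 5 or 3 changed genes without IDE2+FGF10 replicate 1 or 2, and 5 without IDE2+FGF2 replicate 2. The part of endothelial cells was not tested.

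Mesenchymal and matrix genes were lower as well. Of 20 tested mesenchyme and fibroblast genes, 6 were lower (Bgn, Col3a1, Col6a1, Eng, Meox1 and Thy1) and 0 higher, with a median of -0.70 (-0.46 with undetected genes at their bound). Thy1 (9.79 and 9.95), Eng (8.45 and 8.63) and Meox1 (6.21 and 6.57) were also detected on both ES arrays, and the summed signal of the ES cell markers, given with the pluripotency genes, was lower in IDE2+FGF10 as well. Bgn, a small matrix proteoglycan, had levels of 10.05 and 9.92 in IDE2+FGF10, against 11.87 and 11.92 in IDE2+FGF2 (3.75-fold lower, limma adjusted p = 0.0058), with no overlap. Of 26 matrix proteins and integrins, 5 were lower (Tnc, Itga6, Itga1, Col6a1 and Timp3) and 0 higher, with a median of -0.49. Itga1 was detected on the IDE2+FGF2 arrays alone, so it was tested only through that group, which fixed its direction. Tnc, the matrix glycoprotein tenascin-C, had levels of 7.31 and 7.38 in IDE2+FGF10, against 9.83 and 10.55 in IDE2+FGF2 (7.19-fold lower, limma adjusted p = 0.0011). Itga6, a laminin-binding integrin chain, was 4.16-fold lower. The summed signal of the 6 mesenchyme markers was 617 and 703 in IDE2+FGF10, against 1128 and 1388 in IDE2+FGF2, with Postn not detected on any of these arrays. In IDE2+FGF2 the largest part was Col3a1 on replicate 1 (9.41) and Col1a1 on replicate 2 (9.45). Col1a1 (7.53 and 7.85 against 6.79 and 9.45), Pdgfra and Pdgfrb overlapped between the groups. Col1a2 ran the other way, at 5.83 and 5.74 in IDE2+FGF10 and not detected in IDE2+FGF2. The part of mesenchymal or undifferentiated cells in the result was not tested. Of 16 muscle genes only Actc1, cardiac actin, changed (2.46-fold lower), 6.25% of the list against 7.31% of all genes. Changed mesenchyme genes numbered 1 or 0 without IDE2+FGF10 replicate 1 or 2 and 2 without IDE2+FGF2 replicate 2. Changed matrix genes numbered 1 without any of those arrays, 9 without IDE2+FGF2 replicate 1, 8 without an IDE2 array and 3 without an ES array.

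Pluripotency genes were lower in IDE2+FGF10 cells. Of 25 tested, 9 were lower (Utf1, L1td1, Pou5f1, Klf2, Mkrn1, Fbxo15, Nanog, Klf4 and Zfp42) and 0 higher, with a median of -0.74 (-0.89 with undetected genes at their bound). The calls of Klf4 and Zfp42 were lost in 16 and 14 of 21 alternatives. Pou5f1, the core factor OCT4, had levels of 10.29 and 10.13 in IDE2+FGF10, against 11.75 and 12.57 in IDE2+FGF2 (3.87-fold lower, limma adjusted p = 0.018). Nanog had levels of 10.16 and 10.21 in IDE2+FGF10, against 11.71 and 11.41 in IDE2+FGF2 (2.59-fold lower, limma adjusted p = 0.016). Utf1, a chromatin protein of ES cells, had levels of 8.77 and 8.82 in IDE2+FGF10, against 10.85 and 11.56 in IDE2+FGF2 (5.30-fold lower, limma adjusted p = 0.0055). Each of these genes was separate between the groups, and below the level of undifferentiated cells, where Pou5f1 stood at 15.23 and 14.78.

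L1td1, an RNA-binding protein of pluripotent cells, was not detected in IDE2+FGF10 and was at 8.69 and 7.51 in IDE2+FGF2 (at least 5.08-fold lower, limma adjusted p = 0.0028). Its log2 difference was -2.31 without IDE2+FGF2 replicate 1 and -3.48 without replicate 2. The summed linear signal of the 6 markers of undifferentiated ES cells was 4345 and 4206 in IDE2+FGF10, against 11156 and 14139 in IDE2+FGF2, with all 6 detected on every array. In ES cells the sum was 74832 and 63982, and in IDE2 cells 5752 and 5399. Their part in the result was not tested. The pluripotency list had 1 or 2 changed genes without IDE2+FGF10 replicate 1 or 2, and 4 without IDE2+FGF2 replicate 2.

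Genes of the epiblast and primitive streak split. Of 10 tested, Fgf8 and Gsc were higher and Fgf5, Otx2, Pou3f1 and Tcf15 were lower, with a median of -0.91 (-0.48 with undetected genes at their bound). Gsc, a homeobox factor of the organizer, was at 7.02 and 6.81 in IDE2+FGF10 and not detected in IDE2+FGF2 (at least 2.76-fold higher, limma adjusted p = 0.011). Pou3f1 (Oct6) was 2.84-fold and Tcf15 2.90-fold lower. In the list of germline and 2-cell-like genes, Rhox6 and Rhox9 were higher (Rhox6 4.34-fold) and Tcstv1, Tcstv3 and Zscan4c were lower, among 10 tested. These belong to families of near-identical copies, so their probes may read several genes. The epiblast list had 3 or 2 changed genes without IDE2+FGF10 replicate 1 or 2 and 3 without IDE2+FGF2 replicate 2. The germline list had 1 or 0 without IDE2+FGF10 replicate 1 or 2, and 3 or 0 without IDE2+FGF2 replicate 1 or 2.

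The study aimed at lung epithelium, and lung markers were largely below background with either factor. Nkx2-1, the lung and thyroid determinant, and the secreted products Sftpc, Sftpb and Scgb1a1 were detected on 0 of 8 arrays. Foxj1, the regulator of motile cilia, was at 6.91 and 6.54 in IDE2+FGF10 and at 6.49 and 6.29 in IDE2+FGF2 (limma adjusted p = 0.51), and Aqp5, a water channel of alveolar type I cells, was at 6.07 and 4.70 in IDE2+FGF10 and at 4.81 and 5.57 in IDE2+FGF2 (limma adjusted p = 0.81). Of 16 tested lung epithelium genes 1, Id2, was higher (2.32-fold) and 1, Etv5, was lower, both also in other lists, with a median of 0.32. Neither passed without an IDE2+FGF10 array, an ES array or IDE2+FGF2 replicate 2. The summed signal of the 6 lung markers was 299 and 240 in IDE2+FGF10, against 229 and 251 in IDE2+FGF2.

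Definitive endoderm markers gave no single direction. Of 14 tested genes of definitive endoderm and early gut, Cldn6 and Krt19 were higher and Trh, Hhex, Cdx2 and Gata6 were lower, with a median of -0.01. Sox17 was at 6.35 and 7.13 in IDE2+FGF10 and at 7.03 and 6.97 in IDE2+FGF2 (limma adjusted p = 0.66), Foxa2 was detected on 0 of 8 arrays, and Cxcr4 was not detected in IDE2+FGF10 and on 1 IDE2+FGF2 array. Hhex, a homeobox factor of anterior endoderm and also of blood and vessel precursors, was at 5.64 and 5.79 in IDE2+FGF10 and at 7.73 and 7.70 in IDE2+FGF2 (4.01-fold lower, limma adjusted p = 0.0026). Trh, the precursor of thyrotropin-releasing hormone, which ES cells also express, was at 9.57 and 9.70 in IDE2+FGF10 and at 11.80 and 12.49 in IDE2+FGF2 (5.69-fold lower, limma adjusted p = 0.0019). Both genes were separate between the groups. None of 15 extraembryonic endoderm genes passed limma, and 3 of them had an unadjusted p under 0.05, against 2554 of all 9915 genes tested. The summed signal of their 6 markers was 3621 and 3705 in IDE2+FGF10, against 3851 and 3589 in IDE2+FGF2. The endoderm list had 2 changed genes without an IDE2+FGF10 array and 3 without IDE2+FGF2 replicate 2.

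Keratins of simple epithelia were among the rises. Of 22 tested keratin and junction genes, Krt19, Krt7 and Cldn6 were higher and Grhl2, an epithelial transcription factor, was lower, with a median of 0.22. Krt19, a keratin of simple epithelia, was at 11.14 and 11.29 in IDE2+FGF10 and at 9.15 and 9.50 in IDE2+FGF2 (3.71-fold higher, limma adjusted p = 0.0058). Cldn6, an embryonic tight junction protein, was 2.30-fold and Krt7 2.37-fold higher. The call of Krt7 was lost in 12 of 21 alternatives. Plac1, a gene of trophoblast, was 3.28-fold higher, and the summed signal of the 5 trophoblast markers, which include Krt7 and Plac1, was 5809 and 5500 in IDE2+FGF10, against 2795 and 2797 in IDE2+FGF2. Elf5, a defining trophoblast factor, was not detected on any array. The part of trophoblast cells was not tested. Of the keratin list 0 genes changed without an IDE2+FGF10 array, 1 without IDE2+FGF2 replicate 2 and 2 without an ES array.

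Some stress response genes were higher with FGF10. Of 38 tested genes of the ATF4 and integrated stress response, 7 were higher (Ddit3, Chac1, Atf3, Sesn2, Ppp1r15a, Trib3 and Stc2), 1 (Lars) was lower and 30 did not pass, with a median of 0.04. Ddit3, the pro-apoptotic factor CHOP, had levels of 11.22 and 11.29 in IDE2+FGF10, against 8.96 and 8.83 in IDE2+FGF2 (5.13-fold higher, limma adjusted p = 0.016). Chac1, a glutathione-degrading enzyme, had levels of 10.66 and 10.67 in IDE2+FGF10, against 9.05 and 8.94 in IDE2+FGF2 (3.18-fold higher, limma adjusted p = 0.0093). Atf3 had levels of 9.74 and 9.84 in IDE2+FGF10, against 7.78 and 8.69 in IDE2+FGF2 (2.94-fold higher, limma adjusted p = 0.022). In all of them the IDE2+FGF10 arrays were close together and above both IDE2+FGF2 arrays. Ppp1r15a, which recruits the phosphatase that ends the response, was 2.47-fold, Sesn2, an inhibitor of mTORC1, 2.65-fold, Trib3, a pseudokinase, 2.35-fold and Stc2, a secreted glycoprotein, 2.31-fold higher. The call of Trib3 was lost in 13 and that of Stc2 in 9 of 21 alternatives. The stress list had 0 changed genes without an IDE2+FGF10 array, 1 without IDE2+FGF2 replicate 2 and 5 without an ES array.

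Genes of amino acid synthesis in the same list did not pass. Asns, the asparagine synthetase, and Psat1, of serine synthesis, had log2 differences of -0.51 and -1.24 (limma adjusted p = 0.33 and 0.084), and Atf4 itself had 1.01 (limma adjusted p = 0.092). These 3 were chosen after their values were seen. Of 16 ER chaperone genes 1, Edem1, was higher (at least 1.85-fold), 6.25% of the list against 7.31% of all genes. Its call was lost in 11 of 20 alternatives. The chaperone Hspa5 had a log2 difference of 0.07. Of 15 heat shock genes, Hspa1a and Hsph1 were higher and Hsp90aa1 was lower. The call of Hsph1 was lost in 11 and that of Hsp90aa1 in 9 of 21 alternatives. Hspa1a, the inducible HSP70, was at 10.95 and 10.89 in IDE2+FGF10 and at 7.80 and 8.36 in IDE2+FGF2 (7.16-fold higher, limma adjusted p = 0.0026), and its probe may also read the near-identical Hspa1b. Hmox1, heme oxygenase, was 3.04-fold higher and was the only changed gene of 15 NRF2 targets (6.67%). Of 17 p53 targets only Trp53inp1 changed (5.88%), 2.77-fold lower. Both shares were near the 7.31% of all genes. Of the heat shock list 1 gene changed without an IDE2+FGF10 array, an ES array or IDE2+FGF2 replicate 2, and 5 without an IDE2 array.

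The promoters of the raised stress genes are shown because ATF4 and C/EBP factors bind a composite element, searched here as TGATGNAA on both strands in a window that begins before each gene's start and ends shortly after it (RefSeq, GRCm38.p6). It was present in 3 of the 7 changed members that matched a promoter and in 3.97% of 32851 promoters. The matches below are descriptions of letters in these windows, with the element in capitals, written 5′ to 3′ on the gene's strand.
Chac1, chr2:119350992-119351291, plus strand: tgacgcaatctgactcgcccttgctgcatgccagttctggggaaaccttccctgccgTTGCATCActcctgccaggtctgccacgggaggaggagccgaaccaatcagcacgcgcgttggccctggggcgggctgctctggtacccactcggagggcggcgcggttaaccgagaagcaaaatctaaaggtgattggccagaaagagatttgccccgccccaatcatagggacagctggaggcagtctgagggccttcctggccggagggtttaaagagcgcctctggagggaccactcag
Atf3, chr1:191183284-191183583, minus strand: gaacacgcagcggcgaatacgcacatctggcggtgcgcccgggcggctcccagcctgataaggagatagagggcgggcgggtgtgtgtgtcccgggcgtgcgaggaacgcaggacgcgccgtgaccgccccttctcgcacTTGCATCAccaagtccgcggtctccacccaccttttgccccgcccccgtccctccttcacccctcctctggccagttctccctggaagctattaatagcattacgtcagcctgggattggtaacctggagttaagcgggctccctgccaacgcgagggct
Trib3, chr2:152344011-152344310, minus strand: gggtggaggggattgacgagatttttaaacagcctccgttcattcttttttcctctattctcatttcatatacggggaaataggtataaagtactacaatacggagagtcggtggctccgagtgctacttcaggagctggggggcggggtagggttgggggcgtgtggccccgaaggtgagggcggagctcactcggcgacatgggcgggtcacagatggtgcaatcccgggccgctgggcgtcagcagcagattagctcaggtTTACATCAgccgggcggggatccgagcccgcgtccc
For Chac1 the element lay on the strand opposite the gene, as it did for Atf3 and Trib3. The promoters of Ddit3, Sesn2, Ppp1r15a and Stc2 held no match in this window.

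The same was done for the Wnt list with the TCF/LEF letters CTTTGAT, present in 3.73% of promoters. They occurred in 1 of the 4 changed members that matched a promoter, Sp5, whose levels were 8.15 and 8.44 in IDE2+FGF10 against 6.97 and 6.42 in IDE2+FGF2 (limma adjusted p = 0.015).
Sp5, chr2:70474673-70474972, plus strand: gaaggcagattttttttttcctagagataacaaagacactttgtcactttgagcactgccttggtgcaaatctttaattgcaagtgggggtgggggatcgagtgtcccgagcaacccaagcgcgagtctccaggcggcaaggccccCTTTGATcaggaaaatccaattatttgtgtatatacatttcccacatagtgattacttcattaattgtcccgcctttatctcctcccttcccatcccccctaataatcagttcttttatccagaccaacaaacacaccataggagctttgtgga
The capitals mark CTTTGAT, here on the strand of the gene. The ETS letters CCGGAAG, present in 8.86% of promoters, were in 0 of the 3 changed endothelial genes with a promoter (Emcn, Eng and Robo4).

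BMP and growth factor genes changed both ways. In the TGF-beta, BMP and Nodal list 4 of 24 genes were higher (Id1, Fst, Bmp7 and Id2) and 2 lower (Tgfbi and Tgfbr2), with a median of -0.27 (-0.09 with undetected genes at their bound). The call of Bmp7 was lost in 13 and that of Id2 and Tgfbr2 in 10 of 21 alternatives. Id1, an inhibitor of bHLH factors that BMP induces, was at 11.59 and 11.45 in IDE2+FGF10 and at 9.49 and 9.30 in IDE2+FGF2 (4.36-fold higher, limma adjusted p = 0.016). Fst, the activin antagonist follistatin, was 4.08-fold and the ligand Bmp7 2.34-fold higher. Tgfbi, a matrix protein induced by TGF-beta, was 3.23-fold and the receptor Tgfbr2 2.10-fold lower. This list had 1 or 0 changed genes without IDE2+FGF10 replicate 1 or 2, and 3 without IDE2+FGF2 replicate 2 or an ES array.

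In the IGF and pleiotrophin list 3 of 16 genes were higher (Ptn, Igfbp5 and Igfbp6) and 1, Igfbp7, was lower. Ptn, a heparin-binding growth factor, was at 12.66 and 12.68 in IDE2+FGF10 and at 10.41 and 9.77 in IDE2+FGF2 (5.99-fold higher, limma adjusted p = 0.0022). Igfbp7, a secreted binding protein that endothelium also makes, was at 9.48 and 9.34 in IDE2+FGF10 and at 12.12 and 11.11 in IDE2+FGF2 (4.62-fold lower, limma adjusted p = 0.0092). Neither pair overlapped. Of 13 Hox, Meis and Pbx genes, Hoxa2 was higher (2.33-fold), and the more posterior Hoxc6 (at least 2.85-fold) and Hoxd8 (at least 1.56-fold) were lower. Hoxc6 was detected on the IDE2+FGF2 arrays alone, so it was tested only through that group, which fixed its direction. Leaving out an IDE2+FGF10 array left 1 changed gene in the IGF list and 0 in the Hox list, and leaving out IDE2+FGF2 replicate 2 left 2 in the IGF list.

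None of 23 mitochondrial respiration genes, 16 cytosolic ribosome genes, 16 Myc targets and 13 histone genes passed limma. An unadjusted limma p under 0.05 was found for 2, 2, 4 and 4 of them, against 2554 of all 9915 genes tested. Of 31 replication and cell cycle genes only Cdkn1c, an imprinted inhibitor of cyclin-dependent kinases, changed, 3.23% of the list. It was 2.73-fold higher, at 15.07 and 14.96 in IDE2+FGF10 against 13.67 and 13.47 in IDE2+FGF2. Of 22 cholesterol and fatty acid genes only Elovl6, a fatty acid elongase, changed (4.78-fold lower), 4.55% of the list. Of 26 glycolysis and hypoxia genes Egln1 and Eno1b were higher and Pdk1 lower, 11.5% of the list against 7.31% of all genes. The call of Egln1 was lost in 12 of 21 alternatives. The glycolysis list had 0 changed genes without an IDE2+FGF10 or ES array, 1 without IDE2+FGF2 replicate 2 and 5 without an IDE2 array. The plot of changed members by list sets these shares beside those over all genes.

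**Figure D4:**
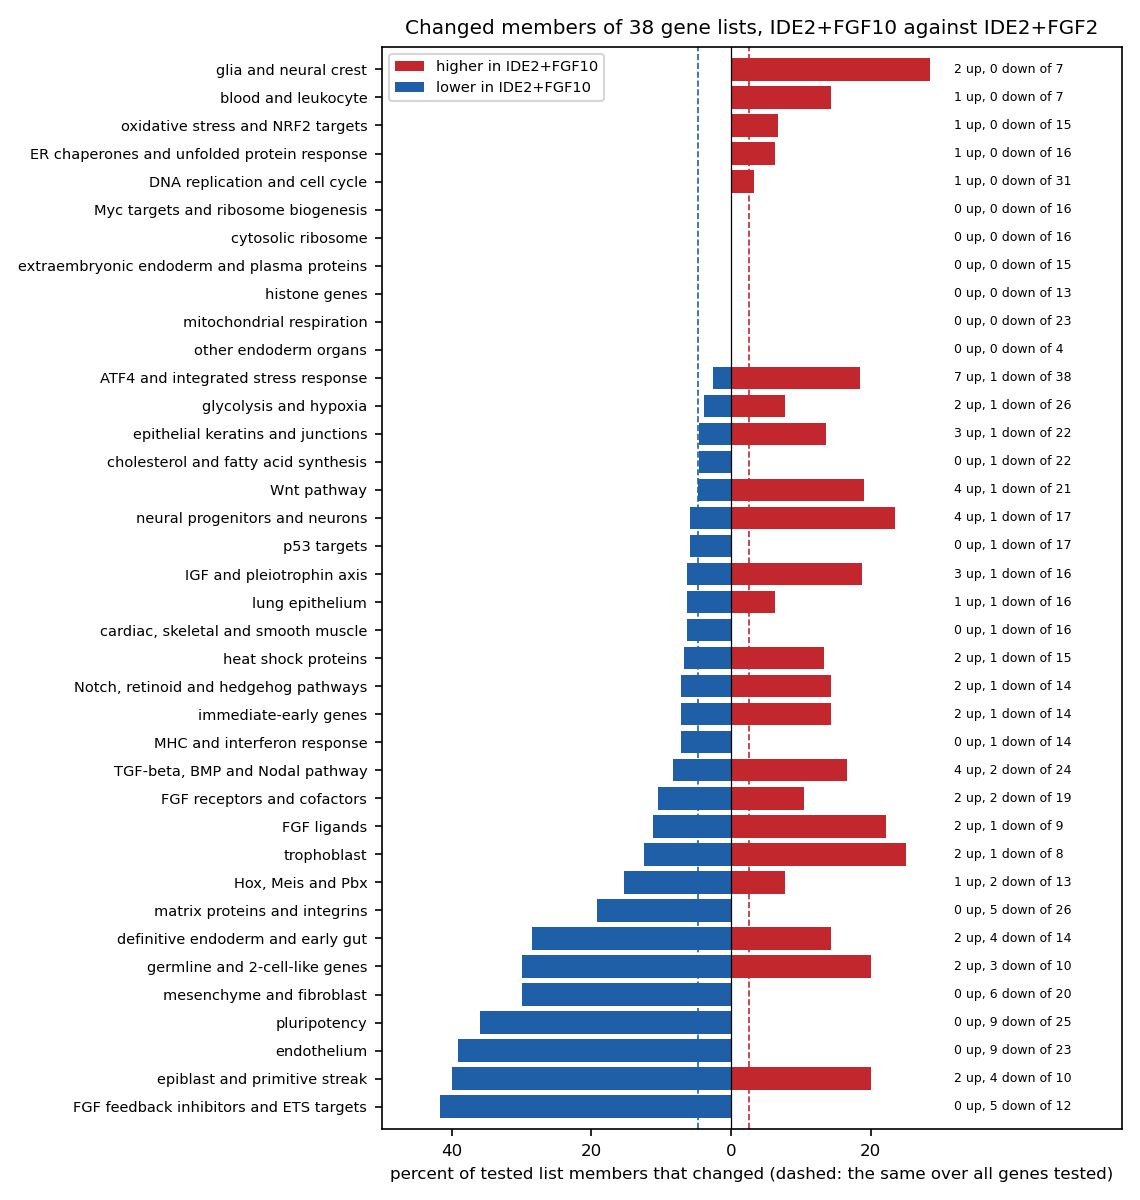
Share of the tested members of each of 38 gene lists that were higher (right, red) or lower (left, blue) in IDE2+FGF10 than in IDE2+FGF2, in percent. Dashed lines are the shares over all genes tested, 2.6% higher and 4.71% lower, and the counts stand at the right. The FGF feedback, endothelium, pluripotency, mesenchyme and matrix lists hold falls and no rises.

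**Figure D5:**
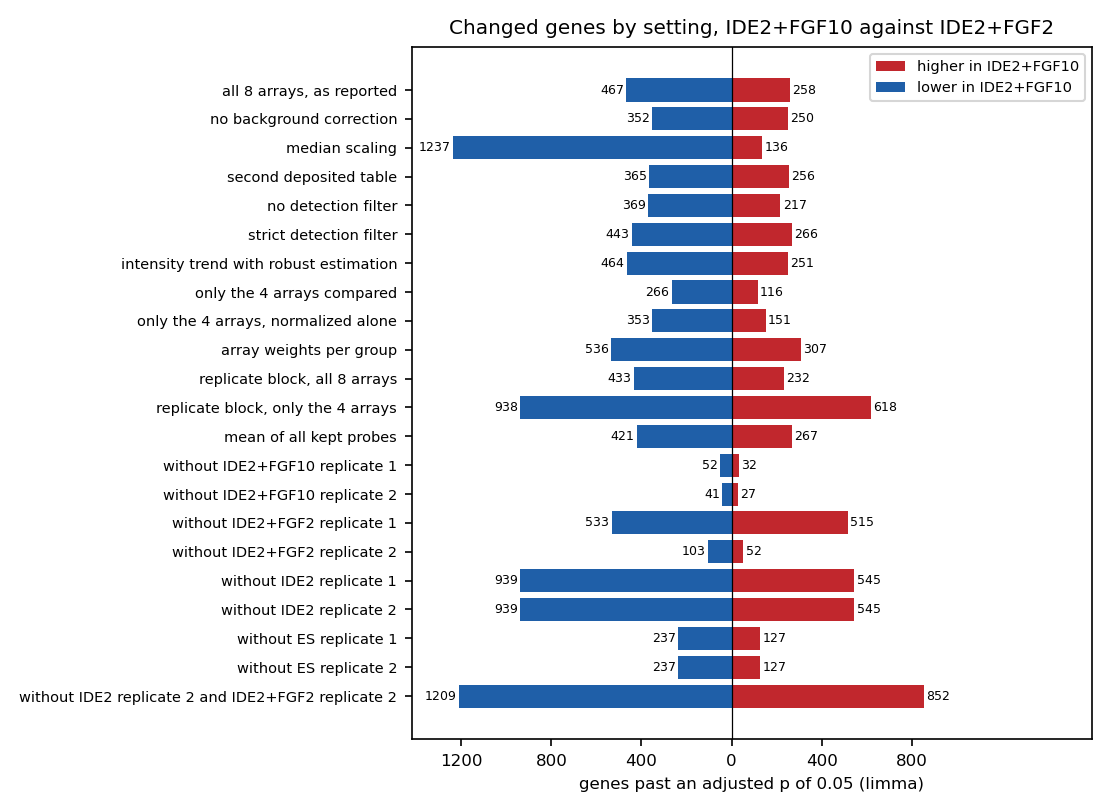
Number of genes higher (right, red) and lower (left, blue) in IDE2+FGF10 at an adjusted p under 0.05 (limma) for each processing alternative and each array left out. Falls outnumber rises in every one of them; the counts are lowest when an IDE2+FGF10 array or IDE2+FGF2 replicate 2 is left out.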

How the data were processed

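RNA of 8 samples was hybridised to Illumina BeadChips. The deposited intensity averages a probe's beads on a linear scale and, from its values, had no background subtraction or scaling. Per the submitters' processing notes the authors used BeadStudio. The deposited bead count gives how many beads each probe had, and the deposited detection p-value compares a probe with negative controls, per the file headers. A second deposited table of intensity values, quantile normalized as judged from its values, served only as an alternative.

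Signals were corrected and normalized with neqc (background from detection p-values, offset 16, quantile normalization, log2; limma 3.58.1, R 4.3.3). Probes stayed in when 2 or more arrays had a detection p under 0.05, and each gene was represented by its named probe with the highest mean, which left 9915 genes. In 0 of 2643 genes with several kept probes were probes called both ways. Of 190 changed genes with several probes, 62 had another probe called the same way. With the probes of a gene averaged, 116 of the 126 changed genes named here passed. The 10 that did not were Actc1, Col3a1, Col6a1, Egln1, Id2, Klf4, Klf6, Lef1, Timp3 and Trp53inp1. The model held all 8 arrays and 4 group means, leaving 4 residual degrees of freedom beside 6.64 prior ones, and in it IDE2+FGF10 minus IDE2+FGF2 was tested with Benjamini-Hochberg adjustment. Errors of log2 differences are standard errors from this fit. The fit was tested on simulated data with known changes. A bound ("at least") sets the higher group against, on each array of the lower group, the higher of the lowest detected level and the probe's own level. The number of arrays limits the precision.

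The 38 lists, the comparison and the rule for named genes were chosen with earlier results of these data known. The lists held 921 entries, 835 with a probe, of which 644 were tested (614 distinct genes, as some are in several lists). Named were the 15 largest rises and falls, the changed members of each list (for a list with none, the member with the smallest p), and a fixed set of markers. The largest rises and falls came from changed genes without overlap, detected on both arrays of the higher group. Provisional gene names were left out. The labels do not say whether replicate numbers pair the samples, and the main fit did not pair them. The correlation of same-numbered deviations was -0.037 for the groups compared, which cannot settle it. Median signal before normalization was higher on replicate 2 in every group. Alternatives were other corrections, scalings, filters, fits and probe summaries, and leaving out each array.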

Additional observations from a re-analysis of the deposited data

How the results depend on the processing

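With 725 changed genes as reported, 110 of them list members, other settings gave 1373 with median scaling, 382 (73 list genes) with only the 4 arrays fitted, and 2061 (206) without IDE2 replicate 2 and IDE2+FGF2 replicate 2 together, an alternative chosen after seeing the data. Median scaling gave 136 higher and 1237 lower genes, against 258 and 467. The replicate block gave 665 with all 8 arrays and 1556 (170) with the 4 arrays, although the labels do not say whether the numbers pair the samples. Leaving out single arrays gave 68 to 1484 changed genes and 23 to 161 list genes; the range ran from IDE2+FGF10 replicate 2 to either IDE2 array, and a lone array was assumed to vary like the other groups. The causes were not tested. No background correction (602), the second table (621), no filter (586), a strict filter (709), an intensity trend (715), array weights (843), the 4 arrays normalized alone (504) and probe means (688) stayed within 1.5 times. Of 126 changed named genes, 0 reversed, but leaving out, weighting or blocking arrays could not reverse groups that do not overlap. In every alternative that gave a value 34 passed, among them Tfap2b, Cbln1, Wnt3a, Wnt1, Otx1, Fgf8, Emcn, Lmo2, Etv4, Dusp4 and Tnc. Spry4 and Fgfr2 were among 9 that did not pass but did under some alternative. For 358 tested genes neither group was detected, so no difference could be read there.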

Other observations

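A few further lists held single changes. Among 7 blood and leukocyte genes, Gata2, a factor of blood progenitors and trophoblast, was 3.06-fold higher in IDE2+FGF10 (9.43 and 9.55, against 7.67 and 8.09 in IDE2+FGF2, limma adjusted p = 0.0085), whereas Lmo2, its partner in blood progenitors, was lower. Among 14 MHC and interferon genes only Irf1 changed, 7.14% of the list against 7.31% of all genes. It was 3.14-fold lower, at 10.08 and 10.32 in IDE2+FGF10 and at 12.11 and 11.59 in IDE2+FGF2 (limma adjusted p = 0.012). Of 8 trophoblast genes Krt7 and Plac1 were higher and Cdx2 lower, with a median of 0.82. The trophoblast list had 0 changed genes without an IDE2+FGF10 array or without IDE2+FGF2 replicate 2, and 5 without an IDE2 array. Of 4 tested genes of other endoderm organs none passed limma and 1, Prox1, had an unadjusted p under 0.05 (log2 difference 1.15, limma adjusted p = 0.074). Over all 9915 genes tested, 2554 had an unadjusted limma p under 0.05.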
